A study of Mus musculus with 8 samples.

Results

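Type B spermatogonia, the last spermatogonia to divide before meiosis, were compared with type A spermatogonia, the earlier spermatogonia among which the stem cells lie. The comparison used the 2 arrays labelled type B and the 2 labelled type A, 4 of the 8 arrays of the series. All were Mouse 430 2.0 oligonucleotide arrays hybridised with labelled total RNA from germ cells of mice of strain BL/6-129, and the series' design gives each array a germ cell preparation of its own. The other 4 arrays, 2 of pachytene spermatocytes and 2 of round spermatids of the same strain, entered the estimate of the spread and serve below as the later stages. The labels name no treatment and no allele. How the cells were purified, how pure they were, and the age and number of the animals are not stated in the sources at hand.

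Spermatogonia divide by mitosis at the base of the seminiferous tubule. Undifferentiated type A cells hold the stem cells and are known for the factors Zbtb16 and Neurog3, and under retinoic acid they become differentiating cells that pass through further divisions to type B. Type B cells give rise to preleptotene spermatocytes, in which Stra8 and its partner Meiosin switch on the genes of the meiotic chromosome axis, of the synaptonemal complex that later joins homologous chromosomes, and of recombination.

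Values are MAS5 signals in arbitrary units, and differences are on the log2(signal + 16) scale, which understates the difference of dim genes. A gene was represented by 1 probe set, and 11661 of 18193 genes passed a filter that asked for a signal above the array's median on at least 2 of the 4 spermatogonial arrays. Of these, 133 passed through the type B arrays only and 65 through the type A arrays only. The arrays' median signals were 41.5 and 45.2 in type B and 51.9 and 45.3 in type A. In bulk samples such as these, fewer cells of a type and less RNA per cell cannot be told apart. The 2 type B arrays differed from each other more than other replicates did: 636 genes were at least 2-fold apart between them, against 369 between the type A arrays, 133 between the pachytene arrays and 100 between the spermatid arrays. Most markers of later stages were higher in type B replicate 2 than on the other 3 spermatogonial arrays, so each comparison below is given for each type B array.

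The 5 genes that mark the stages fell into 3 patterns. Zbtb16, a zinc finger repressor of undifferentiated spermatogonia, read 463 and 389 in the type B arrays, against 1088 and 783 in the type A arrays. Neurog3, a transcription factor of spermatogonia that are leaving the stem cell state, read 61.7 and 52.5 in type B, compared with 99.2 and 117 in type A. Both were lower in both type B arrays than in either type A array, with differences of -1.09 ± 0.22 and -0.76 ± 0.20 (log2 ± SE). Their limma adjusted p-values were 0.229 and 0.327 (n = 2 arrays a group).

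Syce1, a protein of the central element of the synaptonemal complex, read 739 and 1014 in type B and 417 and 411 in type A. Tex12, a second central element protein, read 1176 and 854 in type B and 505 and 460 in type A. Both were higher in both type B arrays, by 1.04 ± 0.21 and 1.03 ± 0.24, with limma adjusted p-values of 0.229 and 0.270. The order of the type B replicates differed, with Syce1 higher in replicate 2 and Tex12 higher in replicate 1. Syce1 was higher still in pachytene (2383 and 2625) and Tex12 was not (535 and 468).

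Stra8, the retinoic acid-induced switch of meiotic entry, read 1219 and 748 in type B, compared with 675 and 850 in type A. Only type B replicate 1 lay above both type A arrays, and the groups overlapped. The difference of 0.33 ± 0.27 (limma adjusted p = 0.644) rested on that array: it was -0.02 if type B replicate 1 was left out, 0.67 if replicate 2 was left out, and -0.07 when ribosomal protein genes set the scale.

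**Figure D1:**
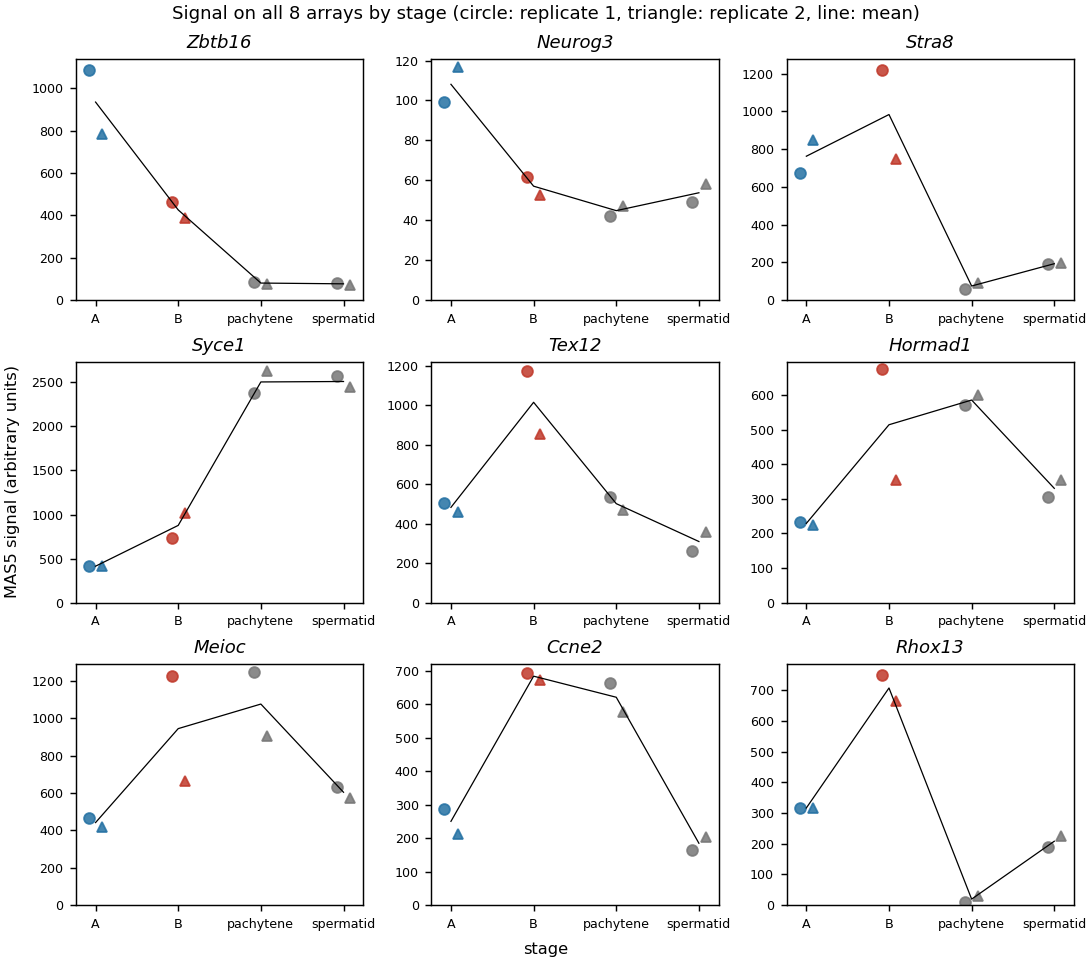
Signal (MAS5, arbitrary units, linear axes from 0) of 9 genes on all 8 arrays, by stage from type A spermatogonia to spermatids. Circles are replicate 1, triangles replicate 2, and the line joins the stage means. Zbtb16 and Neurog3 are lower in both type B arrays than in type A. Rhox13 and Tex12 are higher in both type B arrays than on any other array. Stra8 is above both type A arrays in type B replicate 1 only, and lower on the later arrays than on any spermatogonial array.

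No gene passed limma at an adjusted p under 0.05 (0 higher and 0 lower, 0.0% each of 11661), and the smallest adjusted p was 0.106. Replicates differed with an SD of 0.55 in type B and 0.42 in type A, but 0.33 in pachytene and 0.32 in spermatids. Pooling with the later arrays can therefore make the SE and p-values given here too small. At an unadjusted p under 0.05, limma gave 767 genes higher (6.58%) and 625 lower (5.36%) in type B. It gave 475 higher and 318 lower with only the spermatogonial arrays, and 551 and 326 with array weights. These counts depended on the type B arrays: with replicate 1 left out, limma called 509 genes higher and 130 lower in replicate 2, which was then assumed to vary like the other groups, and with replicate 2 left out it called 0 and 0. With 46 ribosomal protein genes as the centre of each array it called 6 higher and 21 lower. That scaling put the median difference of all genes at -0.42, against -0.02 as deposited, by the same shift in every gene, so list medians below are read against the median of all genes, from which their distance was the same under both. An exact permutation test of 2 arrays against 2 cannot go below p = 0.33, so genes are described below by whether the arrays overlap.

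Both type B arrays lay above both type A arrays for 2143 genes (18.4%) and below them for 2419 genes (20.7%). Centring on the 75th percentile gave 2684 and 1805, and centring on ribosomal protein genes gave 421 and 5589. A difference of at least 2-fold in all 4 array pairs was seen for 17 genes higher (0.146%) and 3 genes lower (0.0257%) in type B, or 1 and 23 with ribosomal centring. The gene counts at 2-fold ran from 47 to 440 higher and from 16 to 94 lower when any 1 of the 4 arrays was left out. Against both type A arrays, type B replicate 1 alone was at least 2-fold above for 47 genes (0.403%) and replicate 2 for 440 (3.77%). Replicate 1 was at least 2-fold below for 18 genes (0.154%) and replicate 2 for 94 (0.806%). Just inside the 2-fold limit were Pigp and Rhox13, with a smallest pair difference of 1.003 and 1.033, and just outside it Dpep3 and Ly6k at 0.956 and 0.951.

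**Figure D2:**
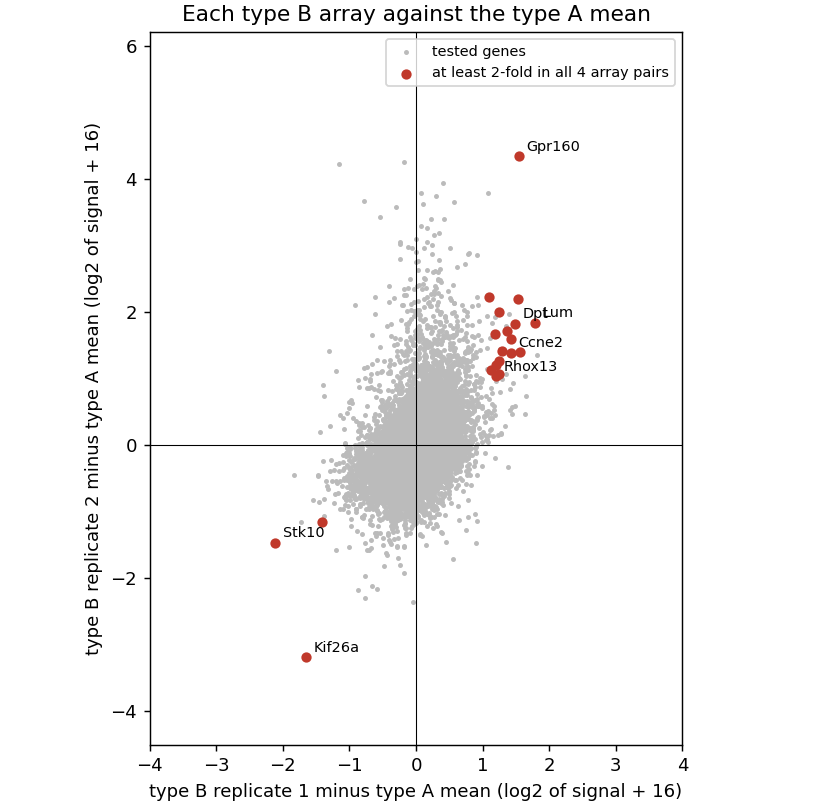
Difference of type B replicate 1 (horizontal axis) and of type B replicate 2 (vertical axis) from the type A mean, in log2(signal + 16), for the 11661 tested genes (grey). Red points are the 20 genes at least 2-fold apart in all 4 array pairs. Many genes stand high on the vertical axis with a value near 0 on the horizontal one, which is the excess of replicate 2.

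The 17 genes at least 2-fold higher in all 4 pairs held genes of the cell cycle, of germ cells and of the extracellular matrix. Ccne2, the cyclin E2 partner of Cdk2 at the entry to S phase, read 694 and 674 in type B, compared with 287 and 214 in type A, a difference of 1.41 ± 0.22 (limma adjusted p = 0.123). The type B replicates were close to each other and stood above both pachytene arrays (664 and 579) and both spermatid arrays (166 and 204). Spdya, the Speedy A activator of Cdk2, read 263 and 425 in type B and 103 and 62.3 in type A, a difference of 1.87 ± 0.27 with the smallest adjusted p of 0.106. Cdkn3, a phosphatase that acts on Cdk proteins, read 213 and 373 in type B and 72.9 and 89.4 in type A (1.62 ± 0.28, limma adjusted p = 0.128). Spdya and Cdkn3 were higher again on all 4 later arrays, Spdya at 1000 and 1032 in pachytene.

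Rhox13, an X-linked homeobox gene of germ cells, read 749 and 666 in type B and 316 and 318 in type A (1.12 ± 0.27, limma adjusted p = 0.281). It was low in pachytene, at 9.7 and 29.3, and read 191 and 226 in spermatids. H2bfm, an X-linked histone H2B variant, read 42.2 and 48.9 in type B and 7.5 and 3.9 in type A (1.51 ± 0.21, limma adjusted p = 0.106). Its type B signals were close to those arrays' medians and its type A signals were well below theirs, and it passed the filter through the type B arrays only. Pigp, a subunit of the enzyme that begins the GPI anchor, read 726 and 730 in type B and 298 and 354 in type A. Gpr160, an orphan receptor, read 84.3 and 677 in type B and 32.4 and 8.3 in type A, so that most of its difference of 2.94 ± 0.69 came from replicate 2 (1.55 without it). Chchd6, a subunit of the complex that shapes mitochondrial cristae, read 517 and 1142 in type B and 225 and 242 in type A, again higher in replicate 2, and its pachytene signals were 980 and 1303.

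Lum, the collagen-binding proteoglycan lumican, had the largest smallest-pair difference. It read 310 and 319 in type B, compared with 58.1 and 103 in type A, a difference of 1.81 ± 0.26 (limma adjusted p = 0.106). Dpt, the matrix protein dermatopontin, read 439 and 558 in type B and 160 and 134 in type A (1.66 ± 0.28, limma adjusted p = 0.123). Agtr2, an angiotensin II receptor, read 116 and 153 in type B and 25.5 and 47.4 in type A. All 3 were at most 38.9 on the later arrays, and both type B replicates were far above every other array. H2-Ab1, a chain of MHC class II, read 139 and 123 in type B and 41.8 and 31.5 in type A (1.48 ± 0.21, limma adjusted p = 0.106), and was also high on the later arrays (171 to 226).

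The remaining 5 of the 17 were Izumo1r (the folate receptor-like protein known on eggs as Juno), Trpd52l3 (a germ cell member of the D52 family), Zfp672 (a zinc finger protein), Rab30 (a Golgi GTPase) and Kcnj11 (the pore subunit of the ATP-sensitive potassium channel). H2bfm, H2-Ab1, Izumo1r, Trpd52l3, Gpr160 and Rab30, 6 of the 17, passed the filter through the type B arrays only, which favours genes higher there. The limma adjusted p-values of the 17 ran from 0.106 to 0.315. Of the 5 with several probe sets, 3 had the same direction in every probe set, and in Rab30 and Kcnj11 1 of 2 probe sets did.

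**Figure D3:**
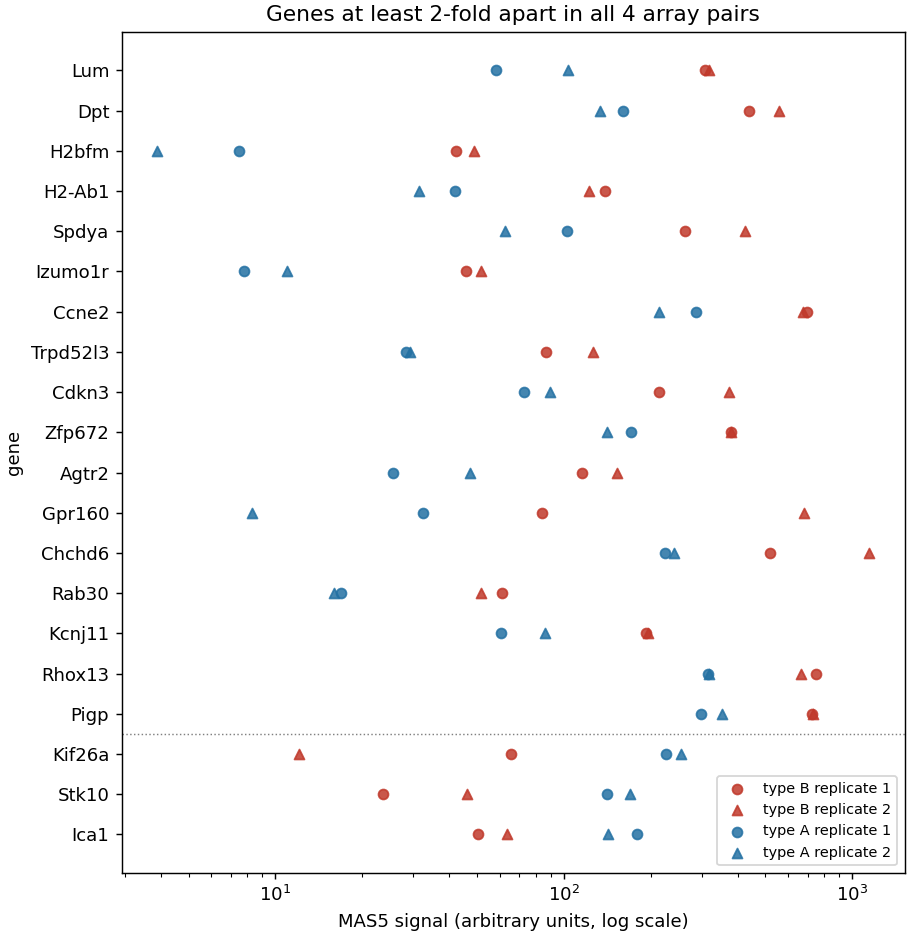
Signal (MAS5, log axis) on the 4 spermatogonial arrays of the 17 genes at least 2-fold higher in type B in all 4 array pairs (above the dotted line) and the 3 at least 2-fold lower (below it). Type B arrays are red and type A arrays blue, with circles for replicate 1 and triangles for replicate 2. The colours do not overlap in any row by the choice of the genes, and Gpr160, Chchd6 and Kif26a show the widest gaps between the type B replicates.

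Some genes read highest in type B. The lowest type B array lay at least 0.5 log2 above the highest type A array for 153 genes (1.31%), and the reverse held for 101 genes (0.866%). How all tested genes stood against the later arrays was not counted, so the counts that follow have no background share. Of the 153, 58 had both type B arrays above all 4 later arrays, and 56 had all 4 later arrays above both. Of the 2143 genes higher in both type B arrays, 767 also had both type B arrays above all 4 later arrays, among them 9 of the 17. Beyond those, the genes with the largest differences included Acer3, an alkaline ceramidase, at 447 and 306 in type B and 147 and 157 in type A, with at most 146 on a later array. Dpep3, a testis dipeptidase, and Ly6k, a GPI-anchored germ cell protein, lay just under 2-fold in the same direction (552 and 532 in type B and 267 and 206 in type A for Dpep3). Unlike Acer3, they were higher still in pachytene, Dpep3 at 1765 and 1749. Vcam1, an adhesion molecule, Slit2, a guidance ligand, Efemp1, a fibulin of the matrix, and Ptx3, a pentraxin, were also highest in type B, Vcam1 at 486 and 739 in type B, compared with 247 and 229 in type A. Ptx3 was dim (61.0 and 59.6 in type B, 20.8 and 25.5 in type A). It passed the filter through the type B arrays only, which favours genes higher there.

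The 3 genes at least 2-fold lower in all 4 pairs were Kif26a, Stk10 and Ica1. Kif26a, an atypical kinesin, read 65.5 and 12.1 in type B, compared with 227 and 255 in type A (-2.42 ± 0.39, limma adjusted p = 0.123). Stk10, a serine/threonine kinase, read 23.6 and 46.0 in type B and 142 and 170 in type A (-1.79 ± 0.29, limma adjusted p = 0.123). Ica1, an autoantigen of pancreatic islets that acts in secretory vesicles, read 50.3 and 63.3 in type B and 179 and 143 in type A (-1.28 ± 0.22, limma adjusted p = 0.128). Kif26a was at most 7.6 on the 4 later arrays, whereas Stk10 and Ica1 were high on some of them, Ica1 at 426 and 528 in spermatids.

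Epas1, the hypoxia-inducible factor HIF-2α, was just outside the 2-fold limit with replicates that nearly coincided. It read 352 and 353 in type B, compared with 719 and 737 in type A (-1.01 ± 0.21, limma adjusted p = 0.238), and 69.3 to 235 on the later arrays. Camta1, a calmodulin-binding transcription activator, read 115 and 85.1 in type B and 343 and 238 in type A. Dst, the cytoskeletal linker dystonin, read 154 and 235 in type B and 710 and 419 in type A. Among the 20 genes with the largest differences in this direction were also Mef2c, a MADS-box factor, at 204 and 189 in type B and 353 and 440 in type A, and Abcc1, an export pump, at 343 and 332 in type B and 654 and 601 in type A. Ctnnd1, the p120 catenin, read 206 and 204 in type B and 369 and 358 in type A. Amot, the angiomotin that binds Yap, read 102 and 95.7 in type B and 202 and 188 in type A. In these 4 genes the 2 arrays of a group were close together and the groups stood apart. Of the 2419 genes lower in both type B arrays, 1347 had all 4 later arrays below both type B arrays. The share of all tested genes with that order was not counted, so the 1347 are not read as a trait of these genes.

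Genes of undifferentiated spermatogonia were lower or overlapping in type B, with none higher in both arrays. Of 24 tested of 30 listed, 0 lay above both type A arrays and 11 (45.8%) lay below, against 20.7% of all genes, and the median difference was -0.50 (replicate 1, -0.21, replicate 2, -0.68), where all genes gave -0.02. The 11 were Zbtb16, Neurog3, Ret, Lin28a, Sall4, Pou5f1, Foxo1, Upp1, Ddit4, Itga6 and Adgra3. Upp1, uridine phosphorylase, read 40.1 and 56.9 in type B and 100 and 91.6 in type A. Itga6, the integrin α6 used to enrich stem cells, read 268 and 325 in type B and 721 and 463 in type A (-0.93 ± 0.26, limma adjusted p = 0.327).

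The replicates were unequal for Sall4 and Lin28a, and less so for Pou5f1 (59.7 and 47.8 in type B, 66.9 and 99.2 in type A). Sall4 read 529 and 235 in type B, compared with 604 and 679 in type A, and Lin28a, an RNA-binding protein that blocks let-7, read 332 and 172 in type B, compared with 464 and 439 in type A. Both were just below type A in replicate 1 and further below in replicate 2, and without replicate 2 the differences were -0.27 and -0.43. Ret, the receptor for Gdnf, followed the same order, at 139 and 70.3 in type B and 166 and 177 in type A. Its co-receptor Gfra1 (136 and 110 in type B, 134 and 176 in type A) and the stem cell factor Id4 (261 and 373 in type B, 197 and 315 in type A) overlapped.

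Genes of differentiating spermatogonia lay on both sides: of 18 tested, 3 were higher (16.7%) and 6 lower (33.3%) in both type B arrays, where all genes gave 18.4% and 20.7%, with a median of -0.23. Kit, the receptor that marks differentiating cells, read 759 and 462 in type B and 717 and 853 in type A, and its groups overlapped. Dmrtb1, a regulator of the mitosis to meiosis decision, read 374 and 735 in type B and 318 and 254 in type A (0.85 ± 0.29, limma adjusted p = 0.360). It read 1640 and 1912 in pachytene, and its difference without replicate 2 was 0.38. Of the retinoic acid pathway, 1 of 14 was higher (7.14%, all genes 18.4%) and 4 were lower (28.6%, all genes 20.7%), among them Stra6, the retinol transporter, at 59.4 and 78.8 in type B and 122 and 114 in type A. Rara, a retinoic acid receptor, read 54.5 and 42.4 in type B and 70.9 and 99.6 in type A.

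Genes of meiosis lay above type A in most cases in type B replicate 1 and on either side of it in replicate 2. Of 38 tested genes of meiotic entry, the synaptonemal complex and recombination, 17 (44.7%) were higher in both type B arrays, against 18.4% of all genes, and 0 were lower in both. In replicate 1, 34 of the 38 were above both type A arrays, against 37.6% of all genes. In replicate 2, 18 (47.4%) were above both type A arrays, against 30.5% of all genes, and 14 (36.8%) were below both, against 46.1% of all genes. Of the 17, replicate 1 was higher than replicate 2 for 12. The difference between the replicates was not tested. Some of the 17 cleared type A by little, with smallest pair differences of 0.0023 in Mlh3, 0.0139 in Hormad2, 0.0155 in Rec8 and 0.0342 in Msh5.

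Among genes of meiotic entry, 5 of 15 were higher in both type B arrays (33.3%, all genes 18.4%, median 0.33). Meioc, which keeps germ cells in the meiotic programme by destabilising mitotic transcripts, read 1226 and 661 in type B, compared with 465 and 418 in type A (1.01 ± 0.29, limma adjusted p = 0.327). Ugt8a, a galactosyltransferase of glycolipid synthesis, read 699 and 370 in type B and 281 and 225 in type A. Stag3, a subunit of meiotic cohesin, read 1108 and 860 in type B and 761 and 691 in type A. In all 3 replicate 1 was the higher type B array, and without replicate 1 the Meioc and Ugt8a differences were 0.57 and 0.53.

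Of the synaptonemal complex, 8 of 14 genes were higher in both type B arrays (57.1%, all genes 18.4%) and 0 lower (all genes 20.7%). The list's median was 0.40, with 0.75 in replicate 1 and 0.16 in replicate 2. The 8 were Syce1, Tex12, Syce2, Syce3, Hormad1, Hormad2, Stag3 and Rec8. In type B replicate 2 Hormad2 read 78.1 and Rec8 86.9, just above their higher type A array at 77.2 and 85.8. Hormad1, which coats unsynapsed chromosome axes, read 674 and 354 in type B and 234 and 224 in type A (1.04 ± 0.28, limma adjusted p = 0.327). The transverse filament gene Sycp1 did not follow, at 1274 and 232 in type B and 776 and 584 in type A: replicate 1 was above both type A arrays and replicate 2 below both. The axis gene Sycp2 (1243 and 453 in type B, 859 and 565 in type A) and the meiotic cohesin gene Smc1b (685 and 251 in type B, 446 and 381 in type A) split in the same way. The central element gene listed as 4930447C04Rik did so too (528 and 117 in type B, 338 and 278 in type A).

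Of recombination genes, 8 of 18 were higher in both type B arrays (44.4%, all genes 18.4%, median 0.31) and 0 lower (all genes 20.7%). Dmc1, the meiotic strand exchange protein, read 620 and 278 in type B and 265 and 229 in type A (0.72 ± 0.32, limma adjusted p = 0.413), and its difference without replicate 1 was 0.17. Terb1, which tethers telomeres to the nuclear envelope, read 620 and 426 in type B and 334 and 220 in type A. Spo11, the enzyme that makes meiotic double-strand breaks, read 111 and 139 in type B and 95.7 and 78.2 in type A, and 907 and 854 in pachytene. Psmc3ip, an accessory factor of Dmc1, read 178 and 526 in type B and 140 and 115 in type A, and its difference without replicate 2 was 0.44. Both type B arrays were above type A for all 4, and the gap was small for Spo11 in replicate 1 and for Dmc1 in replicate 2.

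Promoter sequences of 3 of these genes are shown because they carry different motif content next to a similar difference of about 1 log2 unit. Each runs from 250 bases before to 50 bases after the RefSeq start site (GRCm38.p6), 5′ to 3′ on the gene's strand, with matches on either strand to the STRA8 motif CNCCTCAG, the E-box CACGTG or the E2F motif TTCCCGC in capitals. Tex12 (chr9:50561219-50561518, minus strand) holds 1 match to each, Hormad1 (chr3:95559427-95559726, plus strand) holds 2 E-boxes and 1 E2F match, and Syce1 (chr7:140787805-140788104, minus strand) holds none of these letters.
Tex12: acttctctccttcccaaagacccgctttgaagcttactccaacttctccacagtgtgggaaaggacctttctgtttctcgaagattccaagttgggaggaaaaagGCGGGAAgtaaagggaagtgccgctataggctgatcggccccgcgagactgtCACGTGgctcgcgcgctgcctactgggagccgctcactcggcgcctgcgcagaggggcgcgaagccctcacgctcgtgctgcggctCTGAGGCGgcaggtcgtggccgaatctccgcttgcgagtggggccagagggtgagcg
Hormad1: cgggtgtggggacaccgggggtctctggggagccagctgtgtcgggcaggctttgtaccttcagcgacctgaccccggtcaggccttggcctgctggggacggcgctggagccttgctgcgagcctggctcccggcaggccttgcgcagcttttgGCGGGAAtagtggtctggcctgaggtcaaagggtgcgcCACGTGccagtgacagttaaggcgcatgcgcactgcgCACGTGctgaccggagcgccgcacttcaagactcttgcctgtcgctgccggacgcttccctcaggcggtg
Syce1: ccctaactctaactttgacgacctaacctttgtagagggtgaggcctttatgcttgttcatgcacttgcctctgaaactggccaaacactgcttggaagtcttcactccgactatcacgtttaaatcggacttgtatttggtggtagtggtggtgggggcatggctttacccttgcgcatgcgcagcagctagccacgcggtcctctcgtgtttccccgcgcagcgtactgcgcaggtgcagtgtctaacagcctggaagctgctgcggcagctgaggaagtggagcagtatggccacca

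In Tex12 the STRA8 motif begins 7 bases before the start site, the E-box 93 and the E2F match 145. No 2 of these matches overlap. Of the 17 meiotic genes higher in both type B arrays, 15 have a promoter in the RefSeq table, of which 4 hold the STRA8 motif, 3 the E-box and 5 the E2F motif. Of the 21 other tested meiotic genes, 16 have a promoter, with 3, 4 and 5 matches. The same motifs occur in 9.43%, 10.6% and 8.78% of the 9468 promoters of tested genes, and in 7.97%, 7.24% and 4.66% of all 27025. These matches describe letters in a window and carry no test.

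DNA replication genes were higher or overlapping. Of 35 tested, 12 (34.3%) were higher in both type B arrays and 0 lower, against 18.4% and 20.7% of all genes, with a median of 0.14 (0.40 in replicate 1 and -0.04 in replicate 2). Gins2, a subunit of the replicative helicase, read 241 and 284 in type B, compared with 159 and 121 in type A (0.85 ± 0.21, limma adjusted p = 0.300). Rfc4, a subunit of the clamp loader, read 601 and 676 in type B and 361 and 420 in type A (0.69 ± 0.20, limma adjusted p = 0.327). Rrm2, the small subunit of ribonucleotide reductase, read 1288 and 691 in type B and 558 and 601 in type A. Gins2 and Rfc4 were higher by similar amounts in both replicates, and Rrm2 mainly in replicate 1.

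The other 9 of the 12 were Mcm5, Pcna, Prim1, Rfc2, Rfc3, Gins1, Cdc6, Gmnn and Rpa1. The helicase subunits Mcm2, Mcm3, Mcm4, Mcm6 and Mcm7 overlapped, Mcm2 at 1072 and 605 in type B and 937 and 1096 in type A. Mitosis and cell cycle genes had 9 of 36 higher (25.0%) and 6 lower (16.7%), near the 18.4% and 20.7% of all genes, with a median of 0.00. Cdkn2c, an inhibitor of Cdk4 and Cdk6, read 279 and 438 in type B and 194 and 237 in type A, and Ccnd2, the cyclin D2 partner of those kinases, read 834 and 812 in type B and 1081 and 1043 in type A. Cdk6 read 146 and 123 in type B and 279 and 195 in type A.

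**Figure D4:**
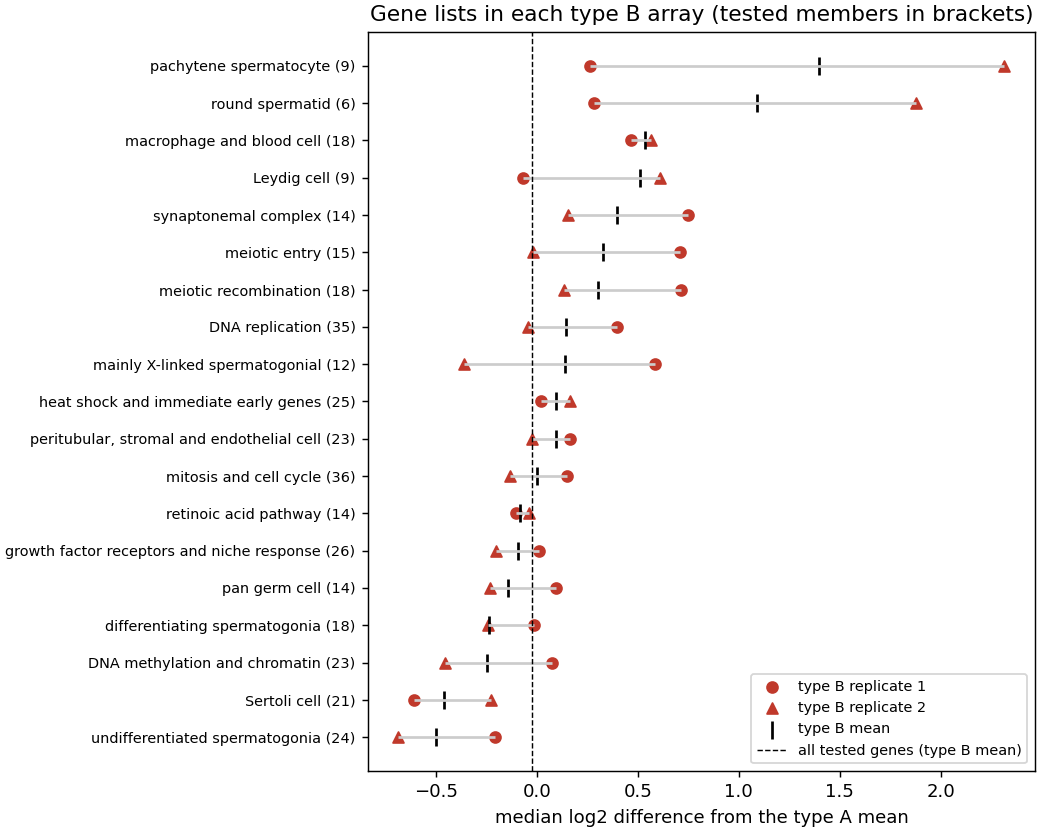
Median difference from the type A mean (log2 of signal + 16) of the tested members of each of 19 gene lists (the X-linked list with its 2 autosomal members), with type B replicate 1 as circles, replicate 2 as triangles and the type B mean as bars. The dashed line is the median of all tested genes. The pachytene and spermatid lists stand out in replicate 2, the meiotic lists are higher in replicate 1, the macrophage and blood cell list is alike in both, and the undifferentiated and Sertoli cell lists are below the line in both.

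Markers of pachytene spermatocytes and round spermatids were for the most part highest, of the 4 spermatogonial arrays, in type B replicate 2. Of the 19 pachytene and 23 spermatid markers on the array, 9 and 4 lay above both type A arrays in replicate 1, and 19 and 21 did so in replicate 2. Of all tested genes, 37.6% lay above both type A arrays in replicate 1 and 30.5% in replicate 2. That set leaves out the markers that failed the filter, so the shares are not over like sets of genes. The summed signal of 19 pachytene markers was 1988 and 14870 in type B, compared with 1666 and 1454 in type A, and that of 23 spermatid markers was 685 and 4531 in type B, compared with 636 and 650 in type A. Ldhc, the germ cell lactate dehydrogenase, Meig1 and the protamine Prm1 are defining markers. Ldhc read 28.3 and 4896 in type B and 39.6 and 29.4 in type A, and Prm1 read 0.1 and 742 in type B and 0.2 and 0.3 in type A. Only 9 of the 19 and 6 of the 23 passed the filter, 1 of each through the type B arrays only. Of these, 6 pachytene (66.7%) and 2 spermatid markers (33.3%) were higher in both type B arrays, against 18.4% of all genes. Replicate 1 exceeded both type A arrays in both sums, by far less than replicate 2 did. Among the markers above type A in both replicates were Pdha2, a testis subunit of pyruvate dehydrogenase, at 147 and 608 in type B and 65.5 and 74.9 in type A, Tesmin, a germ cell protein, at 222 and 550 in type B and 125 and 109 in type A, and Mybl1, the meiotic regulator A-MYB, at 236 and 239 in type B and 149 and 120 in type A. Their part in the differences of the meiotic genes above was not tested.

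The genes with the largest excess of replicate 2 over replicate 1 were transcripts of later stages. Rsph1, a radial spoke protein of the sperm tail, read 34.8 and 2090 in type B, compared with 159 and 57.0 in type A, and 5136 and 6156 in pachytene. Ropn1l, a sperm flagellar protein, read 53.4 and 1488 in type B and 57.7 and 67.8 in type A. Dnaaf1, an assembly factor of axonemal dynein, read 76.4 and 1191 in type B and 77.1 and 66.5 in type A. In each, replicate 1 was no higher than the higher type A array, and replicate 2 was far above both. Slc2a3, Atp8b3, Gm5617, 1700028J19Rik, Asrgl1, Acyp1 and Itgae completed the 10 and were at 874 or more on every later array.

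The opposite excess, of replicate 1 over replicate 2, was led by Sycp1 and took in Ascl2, Glis1, Polr1b, Tex15 and the gene listed as 4930447C04Rik. Ascl2, a bHLH factor, read 128 and 13.1 in type B and 117 and 151 in type A. Tex15, a meiotic and piRNA pathway gene, read 2452 and 710 in type B and 1696 and 1438 in type A. Over all tested genes, 1486 had replicate 1 above and replicate 2 below both type A arrays, and 584 the reverse. The part of the later-stage transcripts in these differences was not tested.

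Markers of somatic cells of the testis were present in every spermatogonial array. Of their summed signals, only that of macrophage and blood cell genes did not overlap between the groups. Of 21 Sertoli cell genes, 10 (47.6%) were lower and 1 (4.76%) was higher in both type B arrays, where all genes gave 20.7% and 18.4%, with a median of -0.46. The sums overlapped, at 10210 and 15280 in type B and 19410 and 13820 in type A. Wt1, a Sertoli cell transcription factor, read 269 and 308 in type B and 707 and 533 in type A (-1.05 ± 0.23, limma adjusted p = 0.238). Cldn11, of the blood-testis barrier, read 594 and 802 in type B and 1230 and 1003 in type A, and Gdnf, the stem cell niche factor, read 39.4 and 65.6 in type B and 91.6 and 99.5 in type A. Clu, the brightest of the list, overlapped at 2781 and 3626 in type B and 4598 and 3294 in type A.

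Macrophage and blood cell genes were higher in both type B arrays for 12 of 18 (66.7%, all genes 18.4%) and lower for 0, with a median of 0.54. Their sum was 2649 and 2896 in type B, compared with 1930 and 1392 in type A, without overlap. Ctss, a lysosomal protease of antigen-presenting cells, read 272 and 220 in type B and 128 and 80.7 in type A (1.14 ± 0.25, limma adjusted p = 0.238). Lyz1, a lysozyme, read 206 and 356 in type B and 114 and 57.5 in type A, and Csf1r read 366 and 342 in type B and 282 and 181 in type A. H2-Ab1, in the group above, is also a member of this list. The erythroid gene Hba-a1 and the leukocyte gene Ptprc were at or below 28.9 on all 4 arrays. Of the 18, 3 passed the filter through the type B arrays only.

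Peritubular, stromal and endothelial genes had the highest sums, 30830 and 31850 in type B and 23130 and 31030 in type A. Of 23 tested, 6 were higher (26.1%, all genes 18.4%) and 1 lower (4.35%, all genes 20.7%) in both type B arrays, with a median of 0.10. Lum, above, is a member, as are Dcn, the proteoglycan decorin (2080 and 2927 in type B, 1160 and 1113 in type A), and Col3a1 (3748 and 4057 in type B, 2222 and 2773 in type A). Acta2, the smooth muscle actin of peritubular cells, overlapped at 3983 and 3841 in type B and 3452 and 4415 in type A. Of 9 Leydig cell genes, 2 were higher (22.2%, all genes 18.4%) and 3 lower (33.3%, all genes 20.7%) in both type B arrays. Their sums were 2607 and 3721 in type B and 2389 and 2847 in type A. The germ cell genes Ddx4 (1905 and 1480 in type B, 1299 and 1493 in type A) and Dazl (3114 and 2199 in type B, 3181 and 2643 in type A) were high on all 4 arrays and overlapped. Of 14 tested pan germ cell genes, 2 were higher (14.3%, all genes 18.4%) and 3 lower (21.4%, all genes 20.7%) in both type B arrays. Tex101 was among those higher (1403 and 980 in type B, 838 and 632 in type A). Piwil4 was among those lower (93.2 and 30.4 in type B, 94.2 and 145 in type A). The part of other cell types in the differences of Zbtb16, Wt1, Lum, Dpt, H2-Ab1 and the rest was not tested.

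**Figure D5:**
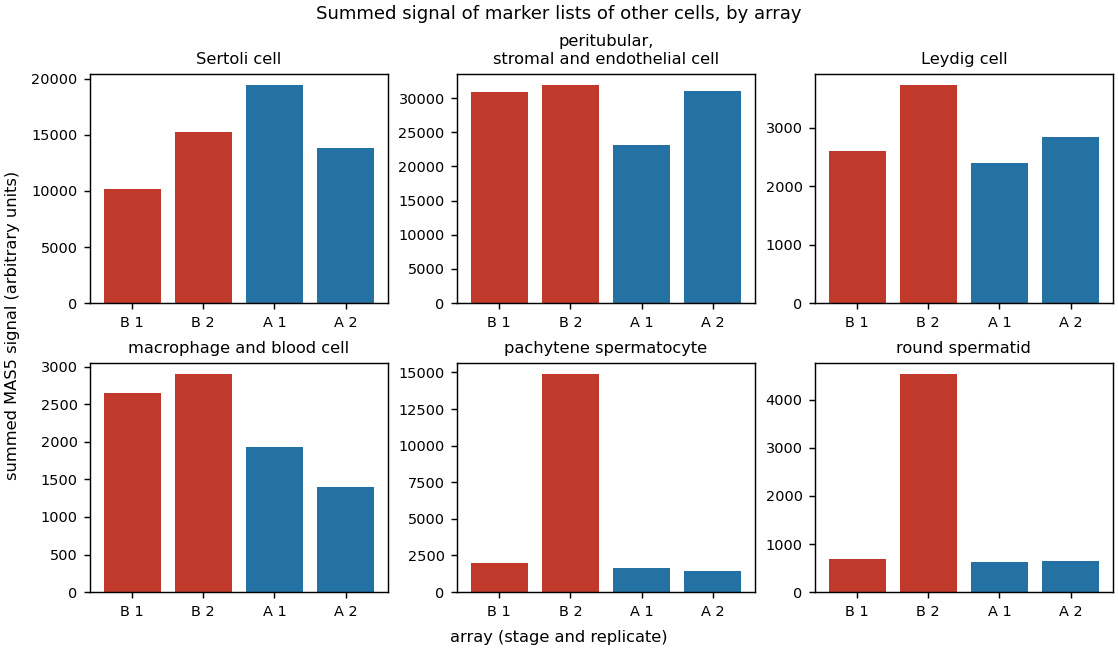
Summed MAS5 signal (bars from 0) of the markers of 6 other cell types on the 4 spermatogonial arrays, with type B replicates 1 and 2 in red and type A replicates 1 and 2 in blue. The macrophage and blood cell sum is higher in both type B arrays, the Sertoli, stromal and Leydig sums overlap, and the pachytene and spermatid sums stand out in type B replicate 2.

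Growth factor receptors and niche genes had 3 of 26 higher (11.5%) and 8 lower (30.8%) in both type B arrays, where all genes gave 18.4% and 20.7%. Cxcl12, the chemokine of the stem cell niche, read 702 and 944 in type B, compared with 353 and 463 in type A (0.98 ± 0.24, limma adjusted p = 0.300), and its receptor Cxcr4 overlapped at 83.4 and 74.5 in type B and 79.9 and 101 in type A. Kitl, the ligand of Kit made by Sertoli cells, read 344 and 431 in type B and 545 and 471 in type A. Of genes of DNA methylation and chromatin, 3 of 23 were higher (13.0%) and 5 lower (21.7%), again beside 18.4% and 20.7% of all genes. Ezh2, the Polycomb methyltransferase, read 717 and 574 in type B and 451 and 383 in type A, and Dot1l, the histone H3 lysine 79 methyltransferase, read 257 and 272 in type B and 530 and 357 in type A. Of the 12 tested genes of the X-linked spermatogonial list, 2 (Stk31 and Rbmxl2) are annotated to autosomes. Of the 10 on the X chromosome, 2 were higher and 0 lower in both type B arrays, beside 18.4% and 20.7% of all genes. The share higher was thus close to that of all genes. The 2 were Rhox13 and Magea5 (391 and 259 in type B, 149 and 218 in type A). The median of the 10 was 0.70 in replicate 1 and -0.43 in replicate 2.

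Probe sets of a gene did not always share a direction. Besides Rab30 and Kcnj11, at least 1 probe set pointed the other way from the one used in Camta1, Dst, Ly6k, Ptx3, Foxo1, Ccnd2, Cdk6, Cxcl12, Csf1r, Lyz1, Dcn and 4930447C04Rik, and the same held for Gfra1, Id4, Adgra3, Mcm4, Mcm7, Cdk2 and Acta2.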

How the data were processed

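The authors deposited 1 intensity per probe set and array, and the submitters' processing notes name MAS5 as the tool, so that per the labels these are MAS5 signals. A test on the deposited values gave every array a mean of 125 after 2% was trimmed at each end, so the arrays were already scaled. Of 45101 probe sets, 34945 were annotated to 1 gene, 932 to several and 9160 to none, and 34741 of those with 1 gene matched the RefSeq gene table for current symbols. Each gene was represented by the probe set that was brightest on average over the 4 spermatogonial arrays. Intensities were taken as log2(signal + 16) without further normalization and fitted with limma 3.58.1 in R 4.3.3, with 1 mean per stage over all 8 arrays (4 residual degrees of freedom), type B minus type A, two-sided, with Benjamini-Hochberg adjustment over all 11661 tested genes. The step was tested on simulated data with the same spread for every gene and stage, which the real arrays do not have. That checks the code and does not show what share of changes limma could find here. The 2 arrays a group limit the precision, and MAS5 keeps no probe-level spread.

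Genes are named by these rules: the 5 stage markers, the 20 largest smallest-pair differences in each direction, the 15 largest among genes highest in type B, list members at least 0.5 apart in all pairs or the 4 largest of a list, the 10 largest differences between type B replicates each way, and the brightest markers of other cells. Other members of a list are named to account for its counts. Members, lists and rules were chosen with earlier results of these data known. The alternatives were 3 other scalings, pseudocounts of 1 and 64, 3 other filters, 2 other ways to represent a gene, each array left out, and 4 other limma designs. A fit over all 20279 probe sets of 1 gene was added after seeing the data. Promoters are the first RefSeq entry of each gene.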

Additional observations from a re-analysis of the deposited data

How the results depend on the processing

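Of 2628 values of the 149 named genes under the alternatives, 2591 kept their direction and 37, of 26 genes, did not. Of the 26, 21 were named only for the gap between the type B replicates or for their brightness. Of the 37, 31 came from leaving out an array. The others were Stra8 at -0.0695, Crem at -0.111, Acta2 at -0.395 and Vim at -0.14 with ribosomal centring, and Acta2 at -0.17 with quantile normalization and -0.0575 as the mean over all probe sets. Over the 4 single-array omissions, opposite signs arose without type B replicate 2 in Rsph1 (-1.15 to 4.22), Atp8b3 (-0.785 to 3.66), Ropn1l (-0.179 to 4.26), Slc2a3 (-0.542 to 3.42), Gm5617 (-0.303 to 3.57), Itgae (-0.233 to 3.05), Sycp1 (-1.47 to 0.904), Glis1 (-1.71 to 0.554), 4930447C04Rik (-1.27 to 0.755), 2810408B13Rik (-1.45 to 0.453), Tex15 (-1.12 to 0.646), Dnmt3b (-0.974 to 0.0163), Rdh11 (-0.337 to 2.21), Gapdhs (-0.389 to 1.27), Ptgds (-0.142 to 1.36) and Tex13b (-1.04 to 0.308). They arose without that array and also without a type A array in Polr1b (-1.13 to 0.912), Bpifa5 (-1.03 to 0.889) and Vamp1 (-1.07 to 0.776). Without type B replicate 1 they arose in Stra8 (-0.0188 to 0.675), and without that array or type A replicate 1 in Aard (-0.364 to 0.0966), Cst12 (-1.0 to 0.65) and Acta2 (-0.174 to 0.18). Without a type A array alone they arose in Crem (-0.05 to 0.624) and Sparc (-0.143 to 0.0132). The cause was not tested. Limma called no gene under the other alternatives except ribosomal centring (6 higher and 21 lower) and the fit without type B replicate 1. Leaving out each of the 4 arrays in turn gave 0 to 509 calls higher and 0 to 130 lower, 47 to 440 and 16 to 94 genes at least 2-fold apart in all remaining pairs, and 3199 to 4384 and 3554 to 5378 genes without overlap. Fewer arrays make both criteria easier to meet by construction. With the replicate number as a block (replicate block), limma again called 0 and 0, with 873 higher and 660 lower at an unadjusted p under 0.05. By the series' design each array had its own preparation. Across genes, replicate 1 minus replicate 2 correlated between stages with r from -0.188 (type A and type B) to 0.204 (type A and pachytene). Whether the replicate numbers share anything beyond a label was not tested.

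The counts of genes at least 2-fold higher and lower in all pairs were 1 and 23 with ribosomal centring, 3 and 1 with a pseudocount of 64, and 10 and 1 with a filter at the 75th percentile. The lower count was 7 with a pseudocount of 1, 8 without a filter and 5 with the filter over all 8 arrays. Genes without overlap numbered 421 and 5589 with ribosomal centring and 3249 and 4263 over all probe sets, and the lower count was 3699 without a filter and 1349 with the 75th percentile filter. Dim genes, such as H2bfm and Izumo1r near the array median, are limited by background. No count could be given for the fits that change only the limma design, beyond their calls.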

Other observations

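Genes on the X chromosome and stress-response genes were looked at beyond the comparisons above. Of 407 tested X-linked genes, 41 (10.1%) were higher and 96 (23.6%) lower in both type B arrays, where the 11211 autosomal genes gave 18.7% and 20.7%. On the log2 scale the X-linked median was -0.09 (replicate 1, 0.03, replicate 2, -0.19) and the autosomal median -0.02 (replicate 1, 0.04, replicate 2, -0.10). The difference between X-linked and autosomal genes was not tested.

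Immediate early genes were bright on all 4 spermatogonial arrays. Fos, a component of AP-1, read 4044 and 4293 in type B and 4205 and 3936 in type A, and Egr1, a growth-response zinc finger factor, read 3842 and 4558 in type B and 4819 and 4417 in type A. On the later arrays Fos was between 571 and 1282. Of the 25 heat shock and immediate early genes, 4 were higher (16%) and 1 lower (4.0%) in both type B arrays, where all genes gave 18.4% and 20.7%. Dnajb1, a cochaperone of Hsp70, read 751 and 1714 in type B, compared with 319 and 596 in type A (1.35 ± 0.38, limma adjusted p = 0.327), and it read 2246 to 2998 on the later arrays. The list's median was 0.10, and -0.03 with quantile normalization.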
